A study of Arabidopsis thaliana with 30 samples.

Results

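Abscisic acid is the plant hormone of drought and seed dormancy, and 10 core genes of its synthesis and signalling were followed across shoots of Arabidopsis thaliana. They are the rows with the loci AT3G14440 (NCED3), AT5G45340 (CYP707A3), AT4G26080 (ABI1), AT5G57050 (ABI2), AT1G72770 (HAB1), AT5G59220 (HAI1), AT3G11410 (PP2CA), AT4G34000 (ABF3), AT5G66400 (RAB18) and AT5G52300 (RD29B). They make up 10 of the 32679 genes in the count files. All 10 passed the filter on low counts that left 19566 genes for testing.

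Abscisic acid is made from carotenoids, and the cleavage step catalysed by NCED3 is the one that drought raises. CYP707A enzymes inactivate the hormone by hydroxylation. When the hormone binds its PYR/PYL receptors, these block clade A protein phosphatases type 2C, here ABI1, ABI2, HAB1, HAI1 and PP2CA. SnRK2 kinases, released from the phosphatases, then activate bZIP factors such as ABF3, which bind ABRE elements in the promoters of target genes such as RAB18 and RD29B. Several of the phosphatase genes are themselves induced by the hormone, which closes a negative feedback loop.

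The shoot RNA came from 30 libraries in 10 groups of 3, lettered A to C. Per the labels the genotype is EAR, VP16 or Col-0. VP16 usually names a viral domain that activates transcription and EAR a plant motif that represses it, and Col-0 is a standard wild-type accession. The series title speaks of genome interrogation for better growth, an approach in which artificial transcription factors with such domains are expressed in plants. The EAR groups were the lines EAR-13-068, EAR-15-025 and EAR-15-053 and the groups EAR pool 13 background and EAR pool 15 background. The VP16 groups were the lines VP16-02-003 and VP16-05-014 and the groups VP16 pool 2 background and VP16 pool 5 background. Col-0 was the last group, and the pool groups are called EAR pool 13, EAR pool 15, VP16 pool 2 and VP16 pool 5 hereafter. Each line was set against the pool whose number its name carries, and each pool against Col-0. The factors' target sequences, the promoter that drives them, the make-up of a pool, plant age and growth conditions are not given in the sources used here. The labels do not say whether the 3 libraries of a group came from different plants, so the p-values cover only the spread among libraries, which may be technical.

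Reads on genes ran from 10076308 to 40780331 per library, with a median of 19024898. The summed level of 4 leaf markers lay between 29982 and 45993 CPM (reads scaled to library size) in every library, while the root markers EXPA7 and RHD6 had 0 reads in all 30 and the 5 root markers together reached at most 0.146 CPM. The 9 seed storage and oil body markers summed to 0 to 1.2 CPM and 5 flower markers to 0.229 to 1.97 CPM. The 3 guard cell markers (MYB60, FAMA and EPF1) summed to 22.5 to 32.0 CPM. FAMA had 11937 reads over all 30 libraries, MYB60 5404 and EPF1 1073, so this sum mostly follows FAMA. In bulk tissue, fewer cells of a type and less RNA per cell cannot be told apart. Of the 30 libraries, 4 differed from their own replicates at least 2 times as much as those did from each other (chi-square per degree of freedom), namely VP16-05-014 C, VP16 pool 2 C, EAR-15-025 A and EAR-15-053 C.

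The promoters differ in the element through which the hormone is known to act. In the 250 bases upstream of the gene start in the RefSeq annotation of TAIR10.1, the ABRE core ACGTG, searched on both strands with overlapping matches counted once, occurred in 6 of the 10 genes. It occurred in 22.9% of 27443 protein-coding promoters of the same length. RD29B and PP2CA held 4 cores each, RAB18 held 3, and CYP707A3, HAB1 and ABF3 held 1 each. NCED3, ABI1, ABI2 and HAI1 held none in this window. The G-box CACGTG, which contains the ABRE core, occurred in CYP707A3 and PP2CA and in 6.49% of all promoters. The DRE core CCGAC, the element of the DREB factors of cold and drought, occurred in PP2CA and RD29B and in 12% of all promoters. Shown here are the windows of the 2 genes richest in ABRE cores without another gene in the window, the 2 genes with 1 core that moved most steadily, and the 2 without a core that moved. Each is written 5′ to 3′ on the gene's strand, and capitals mark ABRE, G-box and DRE matches.
RD29B, chr5:21236771-21237020, plus strand: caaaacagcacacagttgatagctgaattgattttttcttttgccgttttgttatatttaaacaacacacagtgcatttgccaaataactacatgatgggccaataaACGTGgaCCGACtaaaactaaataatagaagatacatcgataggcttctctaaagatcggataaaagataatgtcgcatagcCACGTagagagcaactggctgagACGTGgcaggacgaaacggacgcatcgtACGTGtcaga
PP2CA, chr3:3585851-3586100, minus strand: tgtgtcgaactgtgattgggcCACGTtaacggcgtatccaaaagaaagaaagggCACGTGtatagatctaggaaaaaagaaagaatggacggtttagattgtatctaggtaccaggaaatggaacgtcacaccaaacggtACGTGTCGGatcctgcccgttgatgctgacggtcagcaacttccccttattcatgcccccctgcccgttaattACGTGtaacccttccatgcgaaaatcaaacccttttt
HAB1, chr1:27389698-27389947, plus strand: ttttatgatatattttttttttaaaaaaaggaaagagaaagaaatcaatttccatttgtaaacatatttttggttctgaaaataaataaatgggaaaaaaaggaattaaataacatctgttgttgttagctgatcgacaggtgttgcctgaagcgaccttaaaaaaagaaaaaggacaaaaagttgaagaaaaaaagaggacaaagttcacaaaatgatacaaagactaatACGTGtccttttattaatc
ABF3, chr4:16295084-16295333, plus strand: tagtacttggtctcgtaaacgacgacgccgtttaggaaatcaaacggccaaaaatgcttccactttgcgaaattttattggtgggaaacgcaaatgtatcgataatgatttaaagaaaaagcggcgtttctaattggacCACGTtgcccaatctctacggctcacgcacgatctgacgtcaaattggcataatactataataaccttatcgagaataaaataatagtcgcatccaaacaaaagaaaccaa
NCED3, chr3:4834016-4834265, minus strand: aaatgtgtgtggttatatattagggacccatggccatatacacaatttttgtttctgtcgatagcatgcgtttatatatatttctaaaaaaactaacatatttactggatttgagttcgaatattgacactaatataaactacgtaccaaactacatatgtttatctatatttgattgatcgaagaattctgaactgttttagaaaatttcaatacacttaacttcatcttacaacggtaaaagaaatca
HAI1, chr5:23896940-23897189, minus strand: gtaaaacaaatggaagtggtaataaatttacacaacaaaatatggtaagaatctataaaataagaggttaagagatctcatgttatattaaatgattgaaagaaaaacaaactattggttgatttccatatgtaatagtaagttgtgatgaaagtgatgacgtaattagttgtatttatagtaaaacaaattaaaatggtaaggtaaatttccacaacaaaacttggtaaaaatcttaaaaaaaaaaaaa

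The 10 genes spanned a wide range of levels, which were compared between genes only per kilobase of exon. ABI1 and PP2CA were the highest, with group means of 15.6 to 20.2 and 16.0 to 25.1 CPM per kb. ABF3 followed at 7.56 to 12.1, HAB1 at 4.02 to 7.71 and CYP707A3 at 3.93 to 8.53 CPM per kb. The targets were low in these shoots, RAB18 at 2.57 to 4.17 and RD29B at 0.122 to 0.379 CPM per kb. ABI2 lay at 2.33 to 3.47, NCED3 at 0.914 to 2.68 and HAI1 at 0.308 to 1.21 CPM per kb. RD29B rested on 315 reads over all 30 libraries, with as few as 2 in a library, and HAI1 on 926 reads, with as few as 3, so both are imprecise. From here on levels are CPM, not per kb. All levels in this text, the marker sums and the values per kb included, were scaled by TMM factors. ABI1, ABF3 and RAB18 overlap a neighbouring gene by 22, 24 and 11 exon bases in TAIR10.1, and whether counting used strand is not given in the sources used here, so reads from those bases cannot be told apart.

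**Figure D1:**
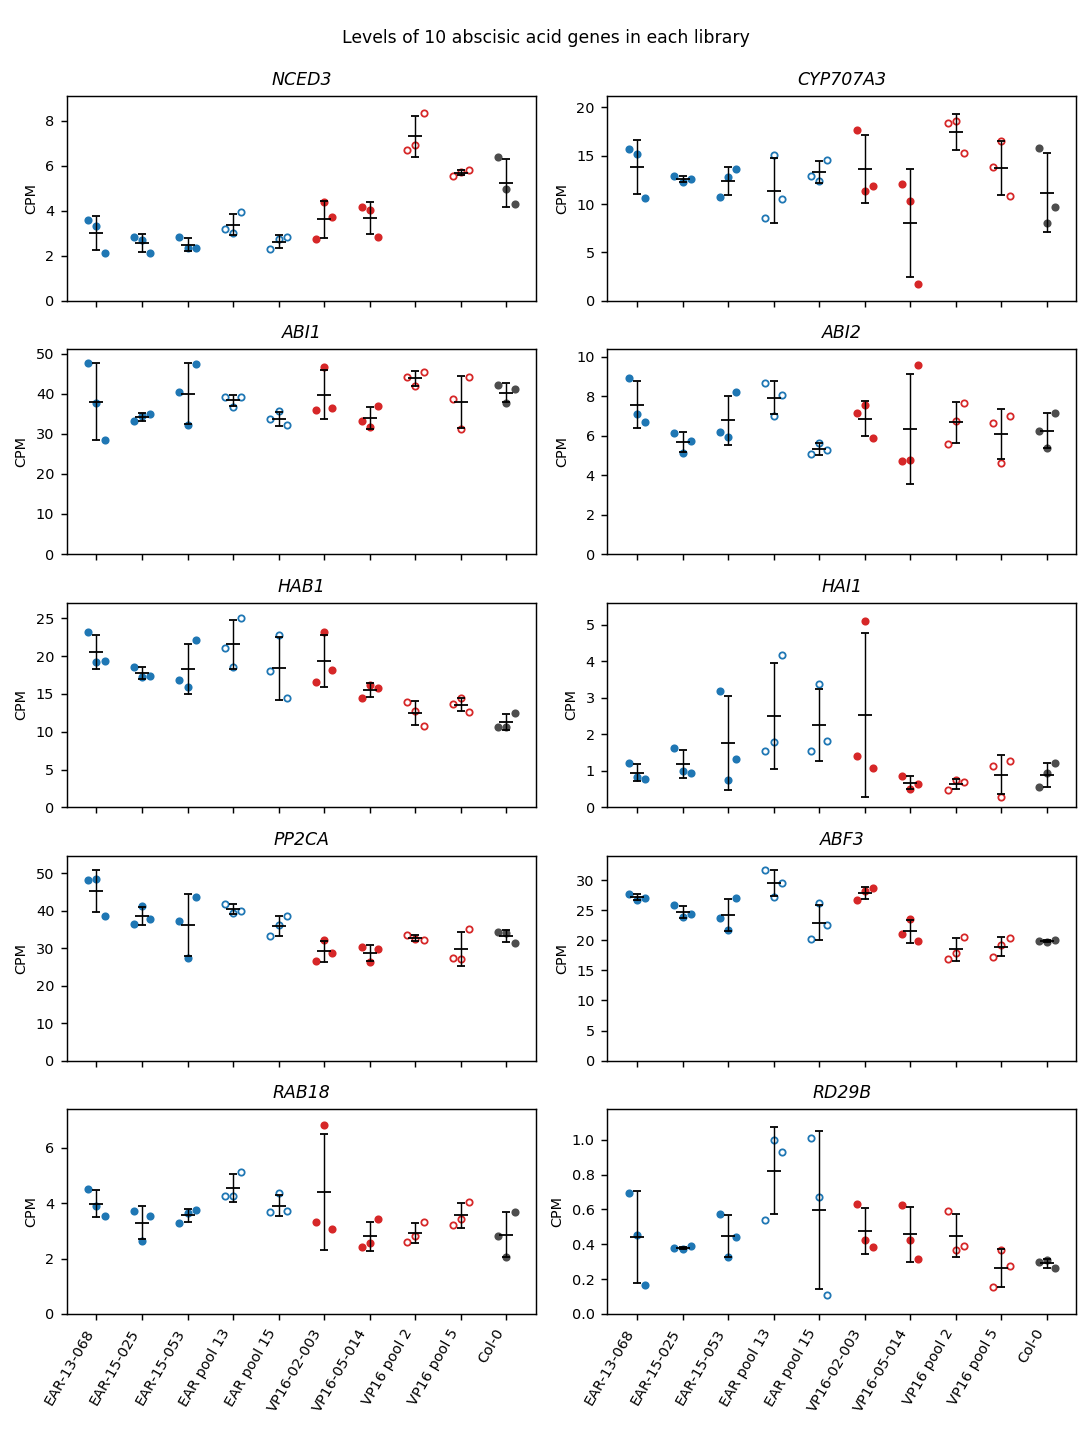
Level (CPM, y axis from 0) of each of the 10 genes in every library, by group along the x axis. Points are libraries A, B and C from left to right, filled for lines and Col-0 and open for pools, and bars are the mean ± SD of 3. NCED3 sat at or above 4.31 CPM in VP16 pool 2, VP16 pool 5 and Col-0 and at or below 4.39 CPM in the other 7 groups, while HAB1 was lowest in those same 3 groups.

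By the separation of neighbouring groups, the ordering was clearest for NCED3 and HAB1. The mean of NCED3 was highest in VP16 pool 2 (7.32 ± 0.908 CPM, SD, n = 3), then VP16 pool 5 (5.70 ± 0.119 CPM) and Col-0 (5.22 ± 1.07 CPM). The other 7 groups had means of 2.50 to 3.67 CPM, in falling order VP16-05-014, VP16-02-003, EAR pool 13, EAR-13-068, EAR pool 15, EAR-15-025 and EAR-15-053. Of the 9 pairs of neighbours in that order, 2 differed by more than the larger SD and had no overlapping libraries: VP16 pool 2 against VP16 pool 5, and Col-0 against VP16-05-014. HAB1, a close relative of ABI1 and ABI2, ran nearly the other way, at 15.5 to 21.5 CPM in those 7 groups, against 11.2 to 13.6 CPM in VP16 pool 5, VP16 pool 2 and Col-0. Its neighbours separated beyond the larger SD, without overlapping libraries, between EAR-15-025 and VP16-05-014 and between VP16-05-014 and VP16 pool 5. ABF3 was highest in EAR pool 13 (29.5 ± 2.17 CPM), VP16-02-003 (27.9 ± 1.01 CPM) and EAR-13-068 (27.1 ± 0.500 CPM) and lowest in VP16 pool 2 (18.5 ± 1.93 CPM). Only 1 of its 9 neighbour pairs, EAR-13-068 against EAR-15-025, differed beyond the larger SD. Over the 10 group means, log2 levels of HAB1 and ABF3 correlated at r = 0.92, those of NCED3 and HAB1 at -0.79 and those of NCED3 and ABF3 at -0.71. These correlations over 10 points are descriptions. Within groups, deviations of log2(CPM + 0.1) from the group mean over 30 libraries correlated at 0.33, 0.15 and 0.37 for the same pairs. The negative relations of NCED3 thus lay between group means and not from library to library. ABI2, HAI1 and RAB18 had no neighbouring pair of groups that differed beyond the larger SD, and CYP707A3, ABI1, PP2CA and RD29B had 1 each.

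In the line VP16-02-003, set against VP16 pool 2, NCED3 fell while HAB1, HAI1, ABF3 and RAB18 rose, so that 5 of the 10 genes passed the test, 4 higher and 1 lower. Of all 19566 genes, 29.1% passed in this comparison. The median log2 fold change was 0.07 over the 10 genes and 0.01 over all genes. DESeq2 also called 5 of the 10.

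The synthesis gene NCED3 stood at 2.75, 4.39 and 3.74 CPM in VP16-02-003 libraries A, B and C, against 6.69, 6.91 and 8.36 CPM in VP16 pool 2. Every line library lay below every pool library. The log2 fold change was -1.0 (SE 0.19, edgeR adjusted p = 0.00064), and the call held when any of the 6 libraries was left out. CYP707A3, which inactivates the hormone, had a log2 fold change of -0.36 (95% interval -1.07 to 0.34) and did not pass.

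Of the phosphatases, HAB1 stood at 16.6, 23.2 and 18.2 CPM in VP16-02-003, against 13.9, 12.7 and 10.8 CPM in VP16 pool 2. The groups did not overlap, and the log2 fold change was 0.63 (SE 0.15, edgeR adjusted p = 0.00448). HAI1, a phosphatase strongly induced by the hormone, stood at 1.42, 5.1 and 1.07 CPM in VP16-02-003, against 0.486, 0.761 and 0.681 CPM in VP16 pool 2. All 3 line libraries lay above the pool, but library B alone was several times higher than A and C. The log2 fold change of 1.98 (SE 0.58, edgeR adjusted p = 0.0137) became 0.94 with an adjusted p of 0.306 without VP16-02-003 B. PP2CA stood at 26.5, 32.1 and 28.9 CPM in the line, against 33.6, 32.5 and 32.2 CPM in the pool. The line lay below the pool throughout, yet the log2 fold change of -0.17 (95% interval -0.43 to 0.09) did not pass the test. ABI1 and ABI2, the first phosphatases found through insensitive mutants, had log2 fold changes of -0.14 (-0.44 to 0.16) and 0.05 (-0.38 to 0.48), and their libraries overlapped.

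ABF3, the bZIP factor, stood at 26.7, 28.1 and 28.7 CPM in VP16-02-003, against 16.9, 18 and 20.6 CPM in VP16 pool 2. The groups were well apart and tight, and the log2 fold change was 0.60 (SE 0.10, edgeR adjusted p = 0.000154). The dehydrin RAB18 stood at 3.3, 6.8 and 3.05 CPM in the line, against 2.6, 2.82 and 3.31 CPM in the pool. Library B was again the highest, and libraries A and C overlapped the pool. Its log2 fold change of 0.61 (SE 0.23, edgeR adjusted p = 0.0455) became 0.14 with an adjusted p of 0.676 without VP16-02-003 B, and the call was also lost without VP16 pool 2 A, B or C (adjusted p = 0.125, 0.109 and 0.0512). It was lost with a replicate block too (adjusted p = 0.0502). RD29B, a hydrophilic stress protein gene often used as a reporter of the hormone, stood at 0.629, 0.425 and 0.382 CPM in the line, against 0.59, 0.367 and 0.389 CPM in the pool, and its log2 fold change of 0.09 had an interval of -0.96 to 1.13. Of the 6 genes with an ABRE core in the window, HAB1, ABF3 and RAB18 passed and CYP707A3, PP2CA and RD29B did not. Of the 4 without one, NCED3 and HAI1 passed and ABI1 and ABI2 did not. The summed guard cell markers stood at 28.3 to 30.4 CPM in VP16-02-003 and 22.5 to 27.0 CPM in VP16 pool 2, without overlap, and their part in these differences was not tested.

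**Figure D2:**
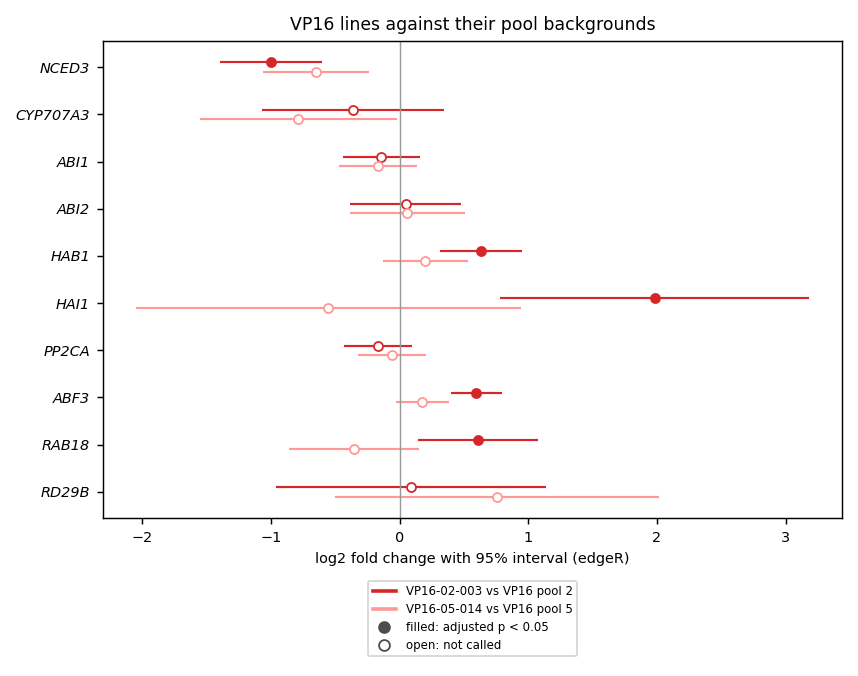
Log2 fold change (x axis) of each gene in VP16-02-003 over VP16 pool 2 (dark, upper) and in VP16-05-014 over VP16 pool 5 (light, lower), with 95% intervals from edgeR. Filled points passed at an adjusted p under 0.05: NCED3 at -1.0 and HAB1, HAI1, ABF3 and RAB18 at 0.63, 1.98, 0.60 and 0.61, all in VP16-02-003.

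Of 69 further genes of synthesis, breakdown, transport, reception and response, 53 were tested, and 13 rose and 9 fell in VP16-02-003 against VP16 pool 2, while 31 did not pass. This stands beside the 29.1% of all genes that passed. The DESeq2 count was 23. Among those that rose most were the bZIP factor GBF3 (8.03 ± 1.36 CPM in VP16-02-003 and 2.84 ± 0.909 CPM in VP16 pool 2, log2 fold change 1.49), AFP4, a repressor that binds bZIP factors (log2 fold change 1.44), and the drought-induced linker histone HIS1-3 (1.43). Among those that fell most were BGLU18, RD26 and CYP707A2. BGLU18, which releases the hormone from its glucose ester, stood at 104, 105 and 85.9 CPM in VP16-02-003, against 257, 299 and 273 CPM in VP16 pool 2. The groups were far apart, with a log2 fold change of -1.49 (SE 0.23, edgeR adjusted p = 0.000105). The hydroxylase gene CYP707A2 (log2 fold change -1.78) and the NAC factor RD26 (-1.14) passed as well, but each call was lost in 5 of the 6 fits without 1 library. RD26 kept it only without VP16-02-003 B and CYP707A2 only without VP16 pool 2 C.

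Of all genes, 29.1% passed in VP16-02-003 against VP16 pool 2 in either direction, and the share lower alone is not given here. By role, 4 of 6 genes of breakdown and conjugation were lower, none was higher and 2 did not pass. The calls of 2 of the 4, CYP707A2 and BGLU33, were lost in most fits without 1 library. The 4 were the hydroxylases CYP707A2 and CYP707A4 and the glucosidases BGLU18 and BGLU33, and the glucosidases free the hormone rather than break it down. These and the next names include genes chosen after their values were seen. Receptors split, with PYL4 (log2 fold change 1.32), PYL5 (1.13) and PYL8 (0.76) higher and PYL7 (-0.67) lower of 9 tested. Of 6 synthesis genes other than NCED3, ABA1 (0.22), ABA3 (0.42) and AAO3 (0.34) were higher and ABA2 (-0.47) lower. The phosphatase HAI2 was higher (1.29). None of the 5 SnRK2 kinases passed. Of 8 further targets only HIS1-3 passed. Of 13 transcription factors and their repressors, 5 were higher and 2 lower, and of 4 transport genes 1 was lower. Of the 22 calls, 12 held whichever library was left out, among them PYL4, PYL7, PYL8, ABA2, CYP707A4, BGLU18, GBF3, AFP4 and HIS1-3. With Col-0 in place of VP16 pool 2 as the control, and the VP16-02-003 libraries in both comparisons, 10 of the 22 passed. Among those that held without any 1 library, HIS1-3 (log2 fold change 0.54, edgeR adjusted p = 0.198), ABA2 (-0.20, adjusted p = 0.221) and AFP2 (0.65, adjusted p = 0.0819) then did not. BGLU33 lost its call in each of the 6 fits. ABA1 lost its call without VP16-02-003 C or VP16 pool 2 A or C, ABA3 without VP16-02-003 B or C or VP16 pool 2 A or C, and AAO3 without VP16-02-003 B or VP16 pool 2 C. PYL5 lost its call without VP16-02-003 C or VP16 pool 2 B, and HAI2 without VP16-02-003 A or B or VP16 pool 2 A or B. In TAIR10.1, PYL7 overlaps neighbouring genes in 616 of its 1240 exon bases, ABA2 in 470 of 1184 and AAO3 in 749 of 5431. AFP2 (365 of 1832), GBF3 (246 of 1944), ABF1 (188 of 1720) and SNRK2.8 (169 of 1868), named here or below, overlap neighbours too. Strand use in counting is not given, so reads from those bases cannot be told apart.

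**Figure D3:**
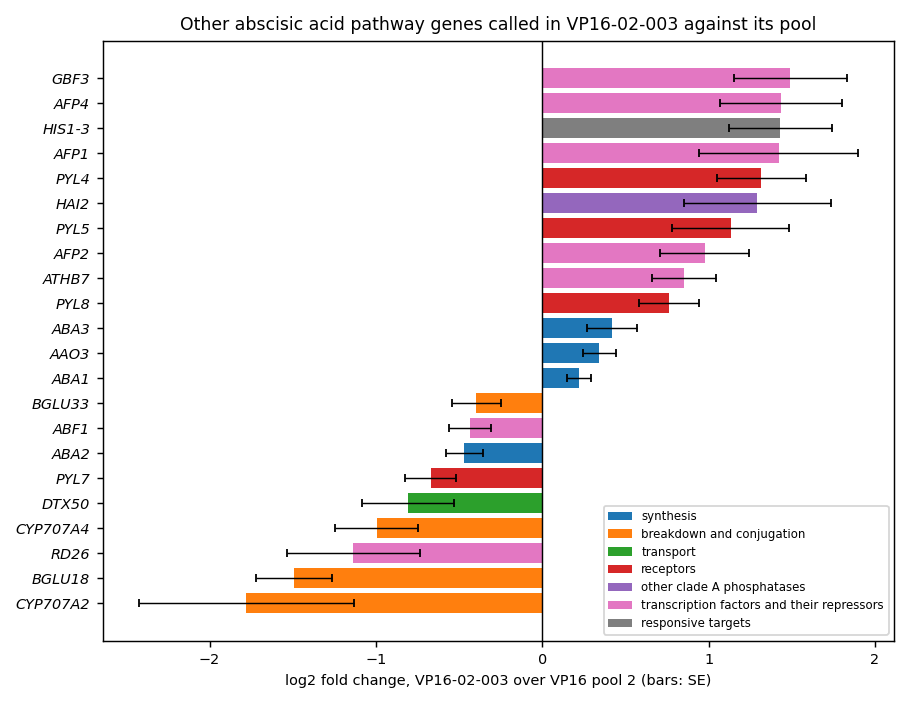
Log2 fold change (x axis) of the 22 further pathway genes that passed in VP16-02-003 over VP16 pool 2, with bars for the SE and colours for the role. The 13 genes on the right rose and the 9 on the left fell, and the 4 genes of breakdown and conjugation all lie on the left.

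In the other VP16 line, VP16-05-014, none of the 10 genes passed edgeR's test against VP16 pool 5, where 1.5% of all genes did. DESeq2 called 0, and 2 genes had an unadjusted p under 0.05. NCED3 stood at 4.15, 4.02 and 2.84 CPM in VP16-05-014, against 5.57, 5.73 and 5.8 CPM in VP16 pool 5. The line lay below the pool in all 3 libraries, with a log2 fold change of -0.65 (95% interval -1.06 to -0.24, edgeR adjusted p = 0.0866). CYP707A3 stood at 12.1, 10.3 and 1.7 CPM in the line, against 13.8, 16.5 and 10.9 CPM in the pool. Library C held the lowest CYP707A3 value of all 30, and without it the log2 fold change of -0.79 (interval -1.55 to -0.02) became -0.28. ABI2 went the other way in that library, at 4.7, 4.79 and 9.59 CPM in the line, against 6.63, 4.62 and 7.0 CPM in the pool, and VP16-05-014 C held the highest ABI2 value of all 30. HAB1 lay above the pool in all 3 libraries without passing (log2 fold change 0.20, interval -0.13 to 0.53). ABF3 (0.17), ABI1 (-0.17) and PP2CA (-0.06) overlapped the pool within narrow intervals, and RAB18 (-0.35), HAI1 (-0.55) and RD29B (0.76) within wider ones. The summed guard cell markers stood at 28.6 to 30.1 CPM in VP16-05-014 and 27.1 to 27.8 CPM in VP16 pool 5, without overlap.

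VP16-05-014 C stood apart from A and B over all genes. The chi-square per degree of freedom was 40.2 and 48.4, against 6.03 between A and B. In the main comparison 1 of the 53 further genes passed, GBF3, at 7.05, 7.95 and 2.02 CPM in VP16-05-014, against 1.52, 2.31 and 1.72 CPM in VP16 pool 5 (log2 fold change 1.61, edgeR adjusted p = 0.0418). Libraries A and B were high and C lay within the pool, and the call held only without C. With Col-0 as the control it was lost (0.91, adjusted p = 0.233). Without C, 12 of the 53 passed, where 26% of all genes did. Higher then were GBF3 (log2 fold change 2.04), AFP4 (1.61), AFP1 (1.29), PYL4 (1.28), PYL5 (1.15), PYL8 (0.81), AFP3 (0.79), PYR1 (0.54) and AAO3 (0.28). Lower were CYP707A2 (-2.48), ABF1 (-0.39) and ABF2 (-0.39). The 10 core genes gave no call without C either: NCED3 was at -0.49 with an edgeR adjusted p of 0.0962, and HAB1 and ABF3 were at 0.17 and 0.22.

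The difference between the lines' effects was tested itself. No core gene passed that test in edgeR or DESeq2, where 1.83% of all genes passed in edgeR, and 3 had an unadjusted p under 0.05. These were HAI1 (difference of log2 fold changes 2.53, interval 0.63 to 4.44, edgeR adjusted p = 0.182), RAB18 (0.96, 0.28 to 1.65, adjusted p = 0.153) and ABF3 (0.42, 0.13 to 0.71, adjusted p = 0.126). For NCED3, which lay below the pool in both lines, the difference was -0.35 (interval -0.93 to 0.22). Of the further genes, BGLU18 and ATHB7 passed. BGLU18 stood at 324, 194 and 355 CPM in VP16-05-014, against 373, 277 and 287 CPM in VP16 pool 5, unlike the drop in VP16-02-003, and the difference of effects was -1.39 (edgeR adjusted p = 0.0229). ATHB7, a homeodomain factor induced by the hormone, stood at 14.3, 20.3 and 14.4 CPM in VP16-02-003, against 8.98, 8.49 and 9.77 CPM in VP16 pool 2, and at 6.65, 6.24 and 8.58 CPM in VP16-05-014, against 8.16, 8.96 and 9.2 CPM in VP16 pool 5. The difference was 1.14 (edgeR adjusted p = 0.0372). Of the 12 fits without 1 library, those without VP16-02-003 C, VP16-05-014 C, VP16 pool 2 B or VP16 pool 5 B or C lost the call of BGLU18. ATHB7 kept its call only in the 2 fits without VP16-02-003 A or VP16-05-014 C.

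In the EAR lines no call was made among these genes. None of the 10 passed edgeR's test in EAR-13-068 against EAR pool 13 (0.235% of all genes passed), in EAR-15-025 against EAR pool 15 (0.0511%) or in EAR-15-053 against EAR pool 15 (0.00511%), and DESeq2 called 0 in each. EAR-15-025 and EAR-15-053 share the libraries of EAR pool 15. The one gene with an unadjusted p under 0.05 was HAI1 in EAR-13-068, at 1.22, 0.841 and 0.787 CPM in the line, against 1.54, 1.78 and 4.16 CPM in EAR pool 13. All line libraries lay below the pool, whose library C was the highest, and the log2 fold change was -1.35 (interval -2.42 to -0.27, edgeR adjusted p = 0.317).

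Intervals for the better measured genes were narrow in the EAR lines. For ABF3 they were -0.31 to 0.07 in EAR-13-068, -0.09 to 0.30 in EAR-15-025 and -0.12 to 0.27 in EAR-15-053, and for HAB1 -0.37 to 0.24, -0.37 to 0.26 and -0.32 to 0.30 in the same order. For RD29B, with its few reads, they ran from -1.62 to 0.03, -1.68 to 0.39 and -1.38 to 0.54. RD29B stood at 0.696, 0.455 and 0.169 CPM in EAR-13-068, 0.377, 0.376 and 0.388 CPM in EAR-15-025 and 0.572, 0.327 and 0.443 CPM in EAR-15-053, against 0.538, 0.999 and 0.932 CPM in EAR pool 13 and 1.01, 0.675 and 0.107 CPM in EAR pool 15. EAR pool 15 alone spanned the values of all 3 lines. RAB18 stood at 4.49, 3.89 and 3.54 CPM in EAR-13-068, 3.72, 2.63 and 3.54 CPM in EAR-15-025 and 3.29, 3.65 and 3.75 CPM in EAR-15-053, against 4.25, 4.24 and 5.13 CPM in EAR pool 13 and 3.67, 4.36 and 3.7 CPM in EAR pool 15, and lines and pools overlapped. EAR-15-025 against EAR-15-053 gave 0 calls in edgeR and DESeq2 and no unadjusted p under 0.05, where 0.0153% of all genes passed, and its smallest adjusted p was 0.61, for ABI1. The effect of EAR-13-068 minus that of EAR-15-025 (0.0358% of all genes) and minus that of EAR-15-053 (0.0204%) gave none by either tool and none at an unadjusted p under 0.05. Of the 53 further pathway genes none passed in edgeR in the 3 line comparisons, 6, 7 and 7 had an unadjusted p under 0.05, and DESeq2 called 1, 1 and 2. The share of all genes is not given for the unadjusted and DESeq2 counts, so neither is read as a result about the pathway.

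**Figure D4:**
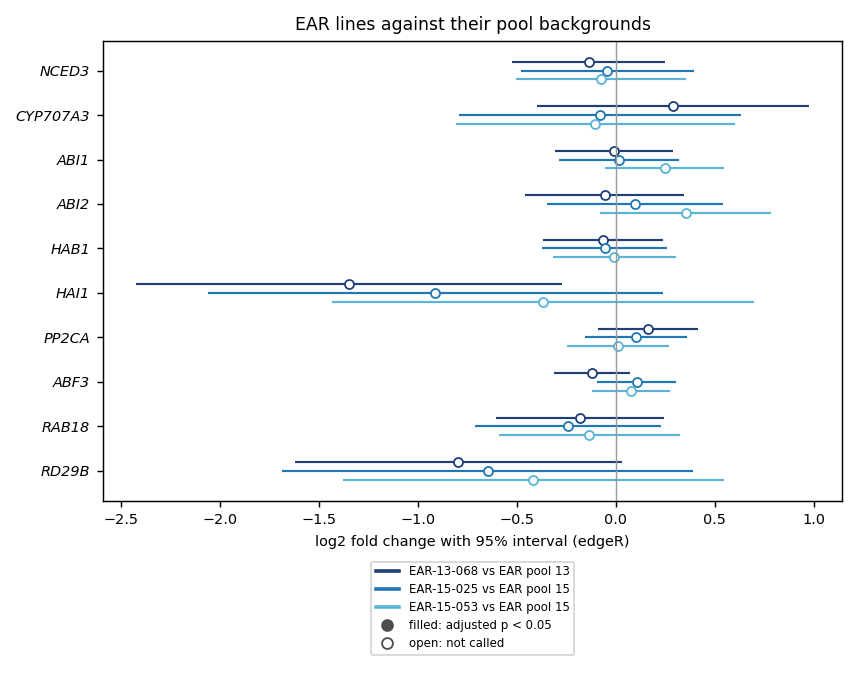
Log2 fold change (x axis) of each gene in EAR-13-068 over EAR pool 13 and in EAR-15-025 and EAR-15-053 over EAR pool 15, from dark to light, with 95% intervals from edgeR. No point is filled, since no gene passed; HAI1 in EAR-13-068 at -1.35 is the only one whose interval leaves out 0.

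The EAR pools, by contrast, differed from Col-0. In EAR pool 13, HAB1, ABF3 and RD29B were higher and NCED3 lower, 4 of 10 genes where 8.71% of all genes passed. In EAR pool 15, HAB1 was higher and NCED3 lower, 2 of 10 where 6.61% of all genes passed. DESeq2 called 3 and 2, and 7 and 4 genes had an unadjusted p under 0.05, for which no share of all genes is given. The median log2 fold change of the 10 genes was 0.45 in EAR pool 13 and 0.20 in EAR pool 15. The summed guard cell markers stood at 29.4 to 30.8 CPM in EAR pool 15 and 24.9 to 28.8 CPM in Col-0, and the leaf markers at 34811 to 35713 CPM in EAR pool 15 and 36419 to 42869 CPM in Col-0, both without overlap. In EAR pool 13 both sums overlapped those of Col-0, and the part of these markers in the differences was not tested. All pool comparisons share the 3 Col-0 libraries.

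NCED3 stood at 3.2, 3.02 and 3.93 CPM in EAR pool 13 and 2.29, 2.75 and 2.84 CPM in EAR pool 15, against 6.39, 4.95 and 4.31 CPM in Col-0. Neither pool overlapped Col-0. The log2 fold changes were -0.65 (SE 0.18, edgeR adjusted p = 0.0257) and -1.01 (SE 0.20, adjusted p = 0.00319). The first call was lost without EAR pool 13 A or B or Col-0 A or B, with an adjusted p of 0.187 and a log2 fold change of -0.45 without Col-0 A. The second held in all 6 such fits.

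HAB1 stood at 21.1, 18.5 and 25 CPM in EAR pool 13 and 18, 22.8 and 14.5 CPM in EAR pool 15, against 10.6, 10.6 and 12.5 CPM in Col-0. Every pool library was higher than every Col-0 library. The log2 fold changes were 0.94 (SE 0.15, edgeR adjusted p = 0.000347) and 0.71 (SE 0.16, adjusted p = 0.00791), and the second fell short without EAR pool 15 B (adjusted p = 0.0802). ABF3 stood at 31.6, 27.2 and 29.6 CPM in EAR pool 13 and 20.2, 26.1 and 22.5 CPM in EAR pool 15, against 19.9, 19.7 and 20.0 CPM in Col-0. Both pools lay above a tight Col-0, with log2 fold changes of 0.57 (SE 0.10, edgeR adjusted p = 0.000435) and 0.21 (SE 0.10, adjusted p = 0.205).

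RD29B stood at 0.538, 0.999 and 0.932 CPM in EAR pool 13 and 1.01, 0.675 and 0.107 CPM in EAR pool 15, against 0.30, 0.309 and 0.263 CPM in Col-0. EAR pool 13 lay above Col-0 throughout, whereas EAR pool 15 held both the highest and the lowest value of all 30 libraries. The log2 fold changes were 1.48 (SE 0.45, edgeR adjusted p = 0.0425) and 1.03 (SE 0.51, adjusted p = 0.23). The first call was lost in 5 of 6 fits without 1 library, all but the one without EAR pool 13 A, with adjusted p up to 0.141, and under DESeq2 (adjusted p = 0.0562). The second was gained without EAR pool 15 C, at 1.52 (adjusted p = 0.0404). RAB18 (0.63, adjusted p = 0.0715) and HAI1 (1.55, adjusted p = 0.0824) lay above Col-0 in every EAR pool 13 library without passing edgeR's test. In EAR pool 15 HAI1 lay above Col-0 (1.42, adjusted p = 0.142) and RAB18 overlapped it (0.42, adjusted p = 0.288). The seed markers, in whose tissue RD29B and RAB18 are known to be high, summed to 0.0769 to 1.2 CPM in EAR pool 13 and 0.0749 to 0.206 CPM in Col-0. The ranges overlapped, and the part of those markers in the result was not tested. CYP707A3, ABI1, ABI2 and PP2CA had log2 fold changes of -0.02, -0.08, 0.33 and 0.28 in EAR pool 13 and 0.20, -0.26, -0.25 and 0.11 in EAR pool 15, and none passed.

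**Figure D5:**
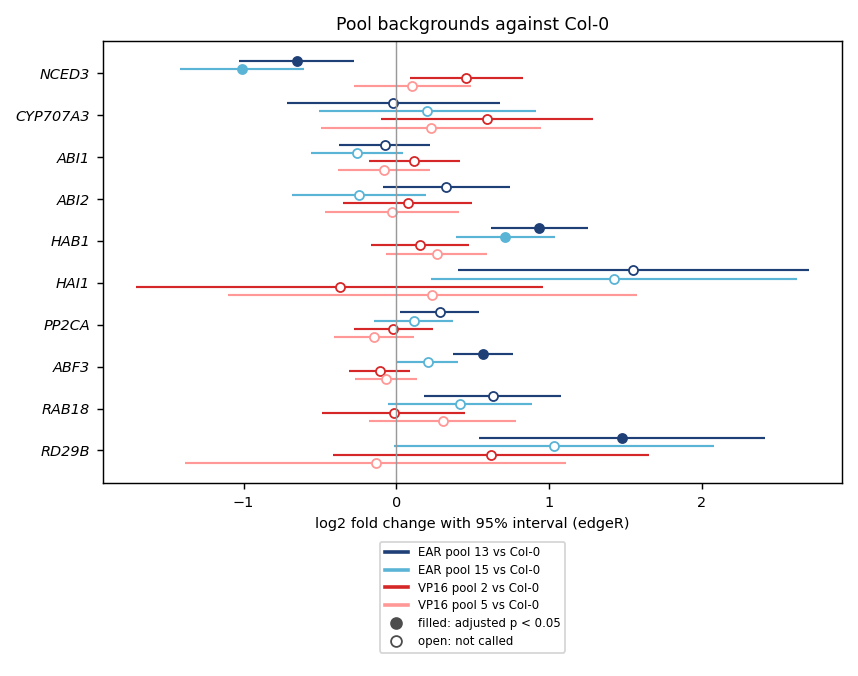
Log2 fold change (x axis) of each gene in each of the 4 pools over Col-0, with 95% intervals from edgeR. Filled points passed: NCED3 and HAB1 in both EAR pools, and ABF3 and RD29B in EAR pool 13; no point of the VP16 pools is filled.

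The VP16 pools gave no call against Col-0. None of the 10 genes passed edgeR's test in VP16 pool 2 (0.0153% of all genes passed) or VP16 pool 5 (0.00511%), and DESeq2 called 0 in both. NCED3 in VP16 pool 2, at 7.32 ± 0.908 CPM against 5.22 ± 1.07 CPM in Col-0 (SD, n = 3 each), was the one gene with an unadjusted p under 0.05. Its log2 fold change was 0.46 (interval 0.09 to 0.83, edgeR adjusted p = 0.353).

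Further along the pathway, EAR pool 13 had 7 of 53 genes higher and 3 lower than Col-0, where 8.71% of all genes passed. The bZIP factor gene ABF1, a close relative of ABF3, stood at 13, 16.6 and 18.1 CPM in EAR pool 13 and 17.1, 17.7 and 20.9 CPM in EAR pool 15, against 33.1, 31.5 and 31.7 CPM in Col-0. Both pools lay far below Col-0, at log2 fold changes of -1.02 (edgeR adjusted p = 9.38e-06) and -0.79 (adjusted p = 0.000489). Both calls held whichever library was left out. In EAR pool 13 the kinase genes SNRK2.2 (-0.59) and SNRK2.3 (-0.47), of the group that the hormone activates most strongly, were lower and SNRK2.8 (1.38) higher. The calcium-binding RD20 (0.95) and ATHB7 (0.78) were also higher. SNRK2.8 held in all 6 fits without 1 library, whereas RD20 held only without EAR pool 13 B and SNRK2.3 only without Col-0 B. SNRK2.2 lost its call without EAR pool 13 A or B and ATHB7 without EAR pool 13 C. In EAR pool 15, where 6.61% of all genes passed, 4 of the 53 were higher, among them AFP4 (1.40), GBF3 (1.16) and PYL4 (1.13), and 3 lower, ABF1, the proline synthesis gene P5CS1 (-0.74) and PYL7 (-0.55). The call of P5CS1 held in all 6 fits without 1 library and that of GBF3 in none. AFP4 held only without EAR pool 15 C, PYL4 was lost without EAR pool 15 B or Col-0 A, and PYL7 held only without EAR pool 15 A or Col-0 C. None of the 53 passed edgeR's test in VP16 pool 2 or VP16 pool 5. There 12 and 6 had an unadjusted p under 0.05 and DESeq2 called 1 and 0, for which no share of all genes is given.

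The lines were also set directly against Col-0, whose libraries all these comparisons share. NCED3 was lower in EAR-13-068 (log2 fold change -0.79, edgeR adjusted p = 0.00868), EAR-15-025 (-1.06, 0.00202), EAR-15-053 (-1.09, 0.00103) and VP16-02-003 (-0.54, 0.0489). HAB1 was higher in these 4 lines by 0.87, 0.66, 0.71 and 0.78 on the log2 scale. ABF3 was higher in EAR-13-068 (0.45) and VP16-02-003 (0.49), and PP2CA in EAR-13-068 (0.45), at 48.3, 48.6 and 38.7 CPM, against 34.3, 34 and 31.4 CPM in Col-0. That made 4, 2, 2 and 3 of 10 genes, where 9.29%, 4.34%, 10.8% and 23.2% of all genes passed. In VP16-02-003, HAI1 (1.61, adjusted p = 0.0512) and RAB18 (0.59, adjusted p = 0.0671), called against VP16 pool 2, did not pass against Col-0. The guard cell markers of EAR-13-068, at 29.8 to 30.4 CPM, also lay above those of Col-0, and their part was not tested. VP16-05-014 gave none in edgeR or DESeq2 (0.526% of all genes), with 2 at an unadjusted p under 0.05.

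Some of the genes varied together from library to library within groups. RAB18 and ABI2 were highest in the same library in 9 of the 10 groups and RAB18 and HAI1 in 7. Over 30 libraries, deviations of log2(CPM + 0.1) from the group mean correlated at 0.61 for RAB18 and ABI2, 0.52 for RAB18 and HAI1 and 0.77 for ABI1 and PP2CA. They correlated at -0.62 for CYP707A3 and ABI2, with VP16-05-014 C at the extreme of both. Some pairs with RD29B showed no such relation, but RD29B had only 315 reads over all 30 libraries. RAB18 and RD29B, ABF3 and RD29B, and ABI2 and RD29B were each highest in the same library in 1 group. They correlated at 0.0016, -0.044 and -0.16. With so few reads, whether these pairs vary together cannot be told. The pairs named here were picked after their values were seen. With 3 libraries in a group, some shared highest libraries arise by chance alone. Genes of 1 library share its depth and scaling, and these are descriptions. VP16-02-003 B held its group's highest value of every gene but CYP707A3, ABF3 and RD29B.

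Outside the hormone lists, the genes whose 10 group means ran most like RAB18 were AT5G24830 (r = 0.95), AT3G48770 (0.92) and PHO1 (0.92), a gene of phosphate export to the xylem. Over the 30 single libraries those values were 0.15, 0.51 and 0.60. For HAI1 they were AT5G01960 (0.95), ChlAKR (0.95) and AT5G47430 (0.93), with 0.63, 0.65 and 0.45 over libraries. They were the highest of all genes tested over only 10 points, and so are given as a description.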

How the data were processed

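RNA of shoots was sequenced in 30 libraries, and the deposited files hold raw read counts per gene. The authors made these counts with tools that the submitters' processing notes list as TopHat2 2.0.5 and HTSeq on TAIR10; strand use and the counting mode are not given in the sources used here. Rows that name no gene were left out. Reads without a feature came to 0.765 to 1.94% and ambiguous reads to 1.32 to 1.48% of a library's total over all rows, those that name no gene included.

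Counts were scaled by TMM, filtered (minimum count 10) and tested over all 30 libraries with edgeR 4.0.16 in R 4.3.3 (quasi-likelihood test, Benjamini-Hochberg over 19566 genes, called at an adjusted p under 0.05). The model took 1 coefficient for each of the 10 groups. Intervals are 95% intervals of the fit. Shares of all genes are those called by edgeR. None is given for counts by DESeq2 or at an unadjusted p under 0.05, which are not read as results. The scripts were tested on simulated data. Alternatives were other scalings, no filter, DESeq2 1.42.0, a replicate block, only the groups compared, Col-0 as the control, each library left out in turn and, added after seeing the data, the 4 libraries that stood apart left out together. Promoters and gene models came from RefSeq's TAIR10.1.

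The 10 genes and all lists were chosen with earlier results of these data known. All 10 are named. Of the 69 further pathway genes, the text names those with the 3 largest rises and falls among the genes that passed, and says where it names others. This covers lines against their pools, pools against Col-0 and the difference between the VP16 lines. For the lines against Col-0 no further gene is named by this rule. In VP16-05-014 without C all 12 genes that passed are named. Same-lettered libraries deviated together in all 3 letters (correlation over 0.1) in 1 of 15 comparisons, EAR pool 15 against Col-0 (0.279, 0.207 and 0.150).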

Additional observations from a re-analysis of the deposited data

Results flagged for a closer look

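Of the 53 further pathway genes tested, 2 differed in their response between the VP16 lines when that difference itself was tested. Of all genes, 1.83% passed that test. BGLU18, the glucosidase that frees the hormone from its glucose ester, averaged 98.2 ± 10.7 CPM in VP16-02-003 and 276 ± 21.4 CPM in VP16 pool 2, and the effect of VP16-02-003 minus that of VP16-05-014 was -1.39 on the log2 scale (edgeR adjusted p = 0.0229). The homeodomain factor gene ATHB7 averaged 16.3 ± 3.4 CPM in VP16-02-003, against 9.08 ± 0.648 CPM in VP16 pool 2, and the same difference was 1.14 (edgeR adjusted p = 0.0372). Of the 12 fits without 1 library, BGLU18 kept its call in 7 and ATHB7 in 2. The edgeR adjusted p in those fits ran from 0.00345 to 0.0785 for BGLU18 and from 0.0304 to 0.12 for ATHB7. With only the groups compared, both calls were lost (edgeR adjusted p = 0.0577 and 0.0616).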

How the results depend on the processing

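Under other scalings, no filter, DESeq2, only the groups compared and without the 4 libraries that stood apart, each count of core genes called stayed within 1.5 times of its main value. Leaving out 1 library gave 3 to 5 in VP16-02-003 against VP16 pool 2 (main count 5), 2 to 3 in EAR pool 13 (main 4) and 1 to 3 in EAR pool 15 (main 2) against Col-0, and 0 in the rest. With the replicate block the count was 4 in VP16-02-003 in place of 5 and stayed 2 in EAR pool 15, the one comparison whose letters deviated together. Against Col-0 in place of their pools, EAR-13-068, EAR-15-025, EAR-15-053 and VP16-02-003 gave 4, 2, 2 and 3 core genes, and the signs of 6, 7, 6 and 1 of the 10 core genes turned. Of these, HAB1 (0.87) and ABF3 (0.45) in EAR-13-068 and HAB1 in EAR-15-025 (0.66) and EAR-15-053 (0.71) were called against Col-0, and the other 16 were called against neither control. CYP707A2 in VP16-02-003 turned too (0.025), a call against its pool alone.

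The count of further pathway genes moved more. Against the pools, DESeq2 called 1, 1, 2 and 3 in EAR-13-068, EAR-15-025, EAR-15-053 and VP16-05-014, where edgeR called 0, 0, 0 and 1, and 1 in VP16 pool 2 against Col-0. Col-0 as the control gave 8, 2 and 11 in the 3 EAR lines, where 9.29%, 4.34% and 10.8% of all genes passed. Without the 4 libraries that stood apart, chosen after seeing the data, counts were 1 in EAR-13-068, 15 in VP16-05-014, 14 in EAR pool 15, 6 in VP16 pool 2, 1 in VP16 pool 5 and 1 for the difference between the VP16 lines. Only the groups compared gave 0 in VP16-05-014, 11 in EAR pool 15 and 0 for that difference, and library size alone gave 0 in VP16-05-014. Leaving out 1 library gave 15 to 18 in VP16-02-003, 0 to 12 in VP16-05-014, 0 to 1 in EAR-15-025 and in EAR-15-053, 4 to 7 in EAR pool 13, 2 to 5 in EAR pool 15 and 0 to 2 for the difference. In VP16-05-014, 1.5% of all genes passed in the main fit and 26% without C. For the other counts, apart from those with Col-0 as the control, the share of all genes is not given here. None of these counts is read as a result about the pathway. Apart from the fits with fewer libraries, the causes were not tested.

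Of 2212 values of single genes under an alternative, 1968 kept direction and side of the threshold, 138 changed sign without being called in either setting, 93 lost a call, 8 gained one and 5 changed sign with a call in 1 of the settings. RD29B and HAI1 had few reads, and their standard errors in VP16-02-003, 0.51 and 0.58 on the log2 scale, were about as large as the change of ABF3, so a change of that size was not detectable in them.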
